A study of Mus musculus with 56 samples.

Results

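Hearts of mice fed only by day were compared with hearts of mice fed only by night at zeitgeber time 24 (ZT24), the end of the dark phase. The comparison holds 8 polyA RNA-seq libraries of 56 in the series, chosen by their labels, of which 4 came from daytime-restricted feeding (DRF) and 4 from the control regimen, nighttime-restricted feeding (NRF). All mice were C57BL/6J females, an inbred wild-type strain, acclimated on normal chow to 12 h of light and 12 h of darkness for 7 days from 7 weeks of age. They were then kept on their regimen for 7 days and taken at 9 weeks of age. At ZT24 the NRF mice stood at the end of their feeding window and the DRF mice at the end of their dark-phase fast, so feeding time and time since food cannot be told apart at this ZT. The series also holds 4 DRF and 4 NRF libraries at ZT0, the same clock time a day earlier, necessarily from other mice since a heart is taken once, and these served as the comparison for how far the ZT24 differences recurred. The labels do not say that replicates are separate animals, so p-values measure only the spread between these samples, which may be technical.

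The heart burns mainly fatty acids, and its fuel genes follow the feed-fast cycle. In fasting, free fatty acids activate PPAR nuclear receptors, low insulin leaves FOXO factors active in the nucleus, and glucocorticoids rise, while feeding favours glucose use, protein synthesis and secretory folding. The heart also runs a circadian clock, in which CLOCK and BMAL1 (the product of Arntl) switch on Per, Cry, Nr1d and PAR bZIP genes through E-box elements, and the products of those genes repress the cycle in turn. Light sets the master clock in the brain, and feeding time can pull tissue clocks away from it. The study asked how far inverted feeding moves these rhythms in peripheral tissues.

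The deposited values were converted back to whole reads and then to linear TPM (reads per base of exon at a fixed library sum), as described under the processing. Recovered reads per library ran from 32281175 to 43668115 under DRF and from 35974117 to 38893762 under NRF at ZT24, with a two-sided exact permutation p of 0.686 for a difference (n = 4 and 4, where the smallest possible p is 0.0286). The share of reads from mitochondrially encoded genes was 20.1 to 22.7% against 18.4 to 22.4% (exact permutation p = 0.629), and the share of the 10 most abundant genes was 22.9 to 25.1% against 21.6 to 24.3% (exact permutation p = 0.429). Summed markers of cardiomyocytes check the tissue label and lay between 33306 and 38147 TPM under DRF and between 34693 and 41022 TPM under NRF, with 0 of 10 markers called. Summed atrial markers varied widely, at 1102, 348, 3375 and 3171 TPM in DRF replicates 1 to 4 and 405, 449, 262 and 1544 TPM in NRF replicates 1 to 4. Erythroid markers ran from 2681 to 32334 TPM over both groups. Of 16 marker lists with a tested member, 15 had no called member, and the macrophage list had 1 of 9, C1qc, lower under DRF. No thymocyte marker was tested, and the lymphocyte and lung epithelium lists had 2 tested members each. The summed TPM did not overlap between the regimens for 1 list, the Schwann cell markers, at 6.51 to 9.94 TPM under DRF and 5.55 to 6.50 TPM under NRF, with 0 of 3 tested members called. Mural cell markers summed to 767 to 879 TPM under DRF and 851 to 993 TPM under NRF, and macrophage markers to 837 to 1085 TPM and 992 to 1594 TPM, both with overlap. The part of these cell types in the gene results was not tested. In bulk tissue, fewer cells of a type and less RNA per cell cannot be told apart.

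Over the 56 libraries 13893 genes averaged 1 TPM or more, and the model fitted to all 56 libraries (limma, on log2(TPM + 1)) called 1227 genes at an adjusted p under 0.05, or 8.83% of those tested. DRF was higher for 610 of them (4.39%) and lower for 617 (4.44%), and the median difference of all tested genes was -0.0042. Most called differences were small, with a median size of 0.38 on the log2 scale. Only 180 were higher and 166 lower by at least 0.5, and 17 were higher and 10 lower by at least 1. The 4 DRF and 4 NRF values did not overlap for 1868 genes (13.4%), 971 of them higher (6.99%) and 897 lower (6.46%) under DRF, and 954 of the 1227 called genes (77.8%) were among these. Fold changes are on the log2(TPM + 1) scale, which understates the change of low genes. The near-even split turned with single libraries left out, from 444 higher and 748 lower without DRF replicate 4 (37.2% higher) and 436 and 708 without NRF replicate 4 (38.1%) to 461 and 301 without DRF replicate 3 (60.5%) and 513 and 304 without NRF replicate 2 (62.8%). The count was 567 without DRF replicate 1, 577 without NRF replicate 3, 762 without DRF replicate 3 and 817 without NRF replicate 2. It was 510 when only the 8 libraries of ZT24 were fitted. The count rose to 2161 with median-of-ratios scaling and 2152 with voom on the recovered reads, and genes are called below by the first model.

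**Figure D1:**
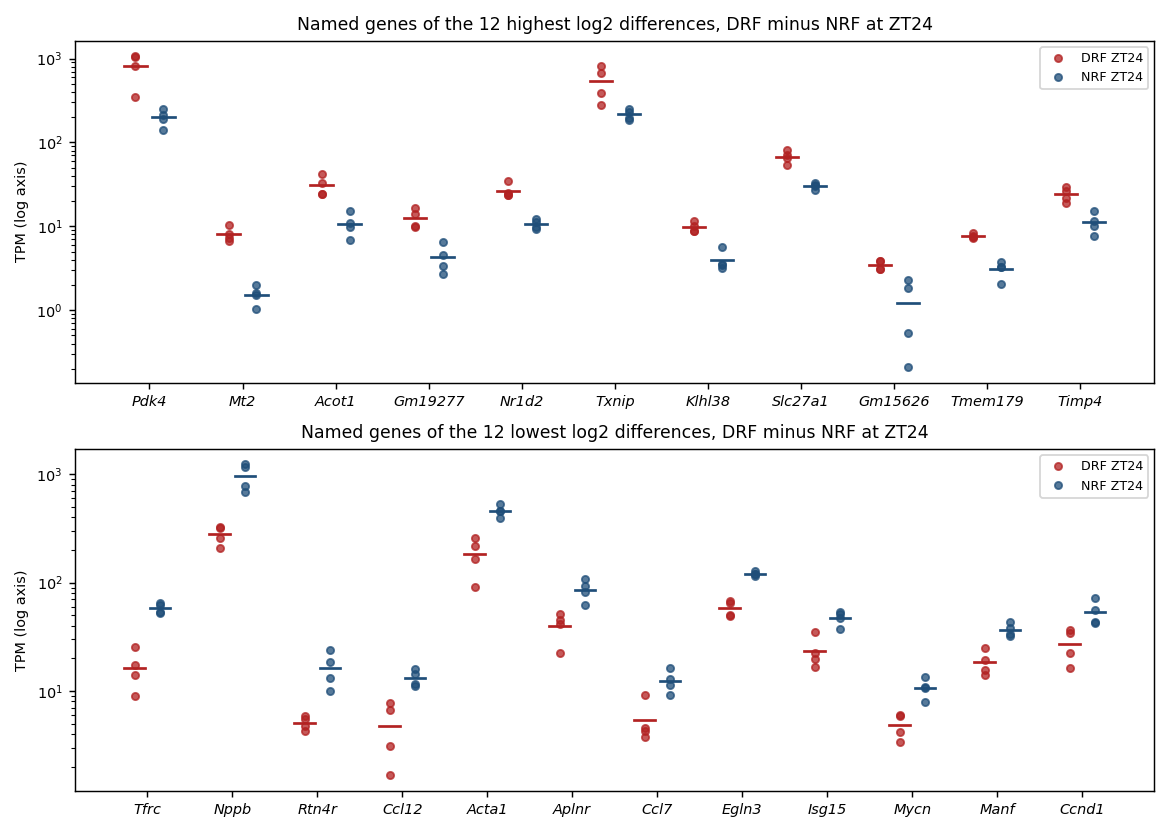
Linear TPM (log axis) in each of the 8 libraries at ZT24 for the named genes among the 12 highest and the 12 lowest log2 differences of called genes whose groups did not overlap. Points are libraries (red DRF, blue NRF) and lines are group means of 4, and in every gene shown the lowest value of the higher group lies above the highest value of the lower group.

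Pdk4 and Acot1, both genes of fatty acid use, were among the 12 highest differences. Pdk4, whose kinase shuts pyruvate out of the mitochondrial oxidation pathway (ENSMUSG00000019577, chr6:5483351-5496309, minus strand, GENCODE M21 on GRCm38), measured 1064, 1030.3, 351 and 814 TPM in DRF replicates 1 to 4 and 142, 249, 212 and 191 TPM in NRF replicates 1 to 4. Every DRF library lay above every NRF library, although DRF replicate 3 was well below the other DRF libraries, and the log2 difference was 1.94 ± 0.46 (SE, adjusted p = 0.00536), or 4.11-fold in mean TPM. Acot1, a cytosolic acyl-CoA thioesterase, read 42, 24.1, 24.5 and 32.9 TPM under DRF against 6.88, 15.1, 9.84 and 11 TPM under NRF, a difference of 1.46 ± 0.27 (SE, adjusted p = 0.000436). Its near copy Acot2, the mitochondrial enzyme, differed by 0.72 (adjusted p = 0.0132), and reads shared between the pair could have been split differently by the counting.

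Gene lists here and below were chosen with earlier results of these data known, so their counts and medians are descriptions and not independent evidence. Of the 17 tested genes on the list of fasting-responsive PPAR targets, 8 were called higher and 0 lower, with a median difference of 0.49 against -0.0042 over all genes (5 without DRF replicate 1). Besides the genes above, Ehhadh, a peroxisomal enzyme of beta-oxidation, was higher by 0.83 (adjusted p = 0.00261). Cpt1a, an entry enzyme of the carnitine shuttle, was higher by 0.62 (adjusted p = 0.018). Mlycd, which removes the malonyl-CoA that blocks that shuttle, was higher by 0.49 (adjusted p = 0.00488), and Acsl1, which activates fatty acids, by 0.35 (adjusted p = 0.0171). Several members were not called. Ucp3, a mitochondrial uncoupling protein, was at 79.7, 86.5, 39 and 79.7 TPM under DRF and 26.1, 46.2, 29.8 and 30.7 TPM under NRF, and only DRF replicate 3 reached down into the NRF range (1.05, adjusted p = 0.12). Angptl4, a secreted inhibitor of lipoprotein lipase, spread from 11.1 to 54.5 TPM under DRF and from 4.61 to 17 TPM under NRF (1.27, adjusted p = 0.163). Acot2, Cpt1a and Acsl1 each lost the call without at least 1 library, differing by gene (DRF replicate 1, or NRF replicates 1 or 3), with an adjusted p of up to 0.0909.

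Of 22 tested genes on the list of mitochondrial fatty acid oxidation, 7 were called higher under DRF, 0 lower and 15 were not called (2 without DRF replicate 1, NRF replicate 3 or NRF replicate 4, and 1 when only the ZT24 libraries were fitted). The difference was positive for all 22, with a median of 0.19. The list also holds Lipe, the hormone-sensitive lipase, which frees fatty acids from lipid droplets in the cytosol and is not a mitochondrial enzyme. Lipe was at 35.7, 28.6, 26.1 and 26.9 TPM under DRF and 16.4, 21.4, 15.6 and 15 TPM under NRF, a difference of 0.75 ± 0.16 (SE, adjusted p = 0.00216) with no overlap. The other called members were enzymes of the oxidation spiral, and differed less, with Acadvl higher by 0.26 (adjusted p = 0.0323), Acadm by 0.25 (adjusted p = 0.00843), Hadha by 0.24 (adjusted p = 0.0286), Hadhb by 0.24 (adjusted p = 0.0203), Acadl by 0.22 (adjusted p = 0.0174) and Hadh by 0.22 (adjusted p = 0.0289). Cpt1b, the muscle form of the carnitine shuttle enzyme, had a difference of 0.38 (adjusted p = 0.184) and was not called. Of 14 tested genes of peroxisomal oxidation, 2 were called higher and 0 lower (median 0.11, and 0 without DRF replicate 1, DRF replicate 4, NRF replicate 3 or NRF replicate 4). Acox3, an oxidase that starts the peroxisomal pathway, was among them, with a difference of 0.27 (adjusted p = 0.0335). Acadvl, Hadha, Hadhb, Acadl, Hadh and Acox3 each lost the call without at least 1 library, differing by gene (any DRF replicate, or NRF replicates 1, 3 or 4), with an adjusted p of up to 0.156.

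Fatty acid uptake and triglyceride turnover genes went both ways, with 4 of 20 called higher and 2 lower (median 0.08, and higher calls fell to 1 without DRF replicate 1). Slc27a1, a fatty acid transporter of muscle (ENSMUSG00000031808, chr8:71568882-71587302, plus strand), was at 80.7, 54.2, 70.4 and 66 TPM under DRF and 32.5, 31, 27 and 30.5 TPM under NRF. The groups were far apart, the NRF libraries sat within a few TPM of each other, and the difference was 1.13 ± 0.14 (SE, adjusted p = 1.68e-06). Gpam, which starts triglyceride synthesis, was higher by 0.71 (adjusted p = 0.0118). So were Pnpla2, the adipose triglyceride lipase, by 0.46 (adjusted p = 0.00843), and Vldlr, a receptor for triglyceride-rich lipoproteins, by 0.42 (adjusted p = 0.0241). Abhd5, the coactivator of Pnpla2, was among the lower genes, with -0.18 (adjusted p = 0.0306). Lpl, which frees fatty acids from lipoproteins, differed by 0.27 (adjusted p = 0.0748) and missed the threshold. Gpam, Pnpla2, Vldlr and Abhd5 each lost the call without at least 1 library, differing by gene (DRF replicates 1, 2 or 3, or NRF replicates 2 or 3), with an adjusted p of up to 0.169.

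Several sterol genes were lower. Of 20 tested members of cholesterol synthesis and uptake, 7 were called lower under DRF and 0 higher, with a median of -0.16 (5 without NRF replicate 3). Sqle, the squalene epoxidase, was at 1.19, 0.948, 1.04 and 1.59 TPM under DRF and 2.14, 1.68, 2.33 and 2.1 TPM under NRF (-0.49, adjusted p = 0.00377). Lower too were the pathway enzymes Msmo1, with a log2 difference of -0.43 (adjusted p = 0.00092), Idi1 with -0.38 (adjusted p = 0.00207) and Hmgcs1 with -0.37 (adjusted p = 0.00115). Stard4, a sterol carrier, had -0.47 (adjusted p = 0.0109). Fatty acid synthesis showed no called member among 17 tested (median 0.04). Scd1, a desaturase, ran from 32.3 to 268 TPM under DRF and from 21.5 to 92.9 TPM under NRF (1.17, adjusted p = 0.281). Fasn, the fatty acid synthase, was not called (0.49, adjusted p = 0.559). The white adipocyte markers summed to 17.7 to 144 TPM under DRF against 14.6 to 63 TPM under NRF, whose part in these values was not tested. None of 5 genes on the ketone body list was called. Bdh1, which interconverts the ketone bodies, had 35.7, 39, 23.8 and 26.6 TPM under DRF and 53.3, 71, 45.2 and 28.9 TPM under NRF (-0.61, adjusted p = 0.146). Stard4 lost its call without NRF replicate 3, with an adjusted p of up to 0.0597.

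Of 25 tested genes of insulin signalling, FOXO targets and atrophy ligases, 12 were called higher under DRF and 0 lower, 24 of 25 had a positive difference, and the median was 0.28 (7 without DRF replicate 1). Klhl38, a muscle gene that responds to fasting, was at 11.7, 8.73, 9.97 and 8.68 TPM under DRF and 5.68, 3.21, 3.43 and 3.57 TPM under NRF. NRF replicate 1 was the highest NRF library and still below every DRF value, and the difference was 1.13 ± 0.30 (SE, adjusted p = 0.0118). Fbxo32 (atrogin-1), a ubiquitin ligase of muscle wasting, was at 45.6, 43, 31.6 and 36.1 TPM under DRF and 34.4, 18.3, 20.1 and 22.1 TPM under NRF (0.72, adjusted p = 0.0277), where NRF replicate 1 lay above DRF replicate 3. Pik3ip1, an inhibitor of PI3 kinase, was higher by 0.70 (adjusted p = 0.00611). Cited2, a transcriptional coregulator, was higher by 0.65 (adjusted p = 0.00766) and Fbxo31, an F-box protein, by 0.60 (adjusted p = 6.71e-05). Also higher were Foxo3 by 0.55 (adjusted p = 0.00582), Deptor, an mTOR inhibitor, by 0.46 (adjusted p = 0.00475), and the receptors Insr and Igf1r by 0.41 (adjusted p = 0.0157) and 0.30 (adjusted p = 0.0391). The others were Foxo4 (0.27, adjusted p = 0.00518) and 2 described below, Pik3r1 and Eif4ebp1. Trim63 (MuRF1), the other atrophy ligase, had 168, 163, 186 and 171 TPM under DRF and 169, 129, 117 and 141 TPM under NRF (0.31, adjusted p = 0.116). Foxo1 (0.21, adjusted p = 0.167) and Irs2 (0.22, adjusted p = 0.652) were not called. Klhl38, Fbxo32, Cited2, Insr and Igf1r each lost the call without at least 1 library, differing by gene (any DRF replicate, or NRF replicates 2, 3 or 4), with an adjusted p of up to 0.145.

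Among genes of glucose handling, 4 of 24 were called higher and 2 lower (median 0.18, and 2 without DRF replicate 1 for the higher calls). Txnip, which restrains glucose uptake (ENSMUSG00000038393, chr3:96557957-96561883, plus strand), was at 821, 387, 675 and 276 TPM under DRF and 232, 248, 184 and 196 TPM under NRF. The DRF libraries spread widely while the NRF libraries stayed within 184 to 248 TPM, and the difference was 1.21 ± 0.30 (SE, adjusted p = 0.00871). Pdk2, another kinase that blocks pyruvate oxidation, was higher by 0.30 (adjusted p = 0.00354), and Pdp2, the opposing phosphatase, was also higher by 0.50 (adjusted p = 0.0209). Pfkfb1, a regulator of glycolytic flux, was higher by 0.77 (adjusted p = 0.00306). Ppp1r3c, which targets a phosphatase to glycogen and favours its storage, was lower, at 64.8, 79.4, 72.8 and 92.3 TPM under DRF and 111, 121, 119.6 and 114 TPM under NRF (-0.60, adjusted p = 0.0191). Hk1, a hexokinase, was also lower, with -0.26 (adjusted p = 0.0468). The insulin-responsive transporter Slc2a4 (0.24, adjusted p = 0.122) and the basal transporter Slc2a1 (0.44, adjusted p = 0.0639) were not called.

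Autophagy genes had 5 of 24 called higher and 1 lower (median 0.12, and 2 without NRF replicate 3 for the higher calls). Sqstm1 (p62), a receptor that delivers cargo to autophagosomes, had 308, 247, 259 and 288 TPM under DRF and 186, 201, 153 and 143 TPM under NRF. The groups were well apart although the difference was moderate, at 0.69 ± 0.08 (SE, adjusted p = 4.64e-07). Gabarapl1, an ATG8-family protein of the autophagosome membrane, was higher by 0.54 (adjusted p = 0.00271). Atg13 (0.29, adjusted p = 0.0126), Atg14 (0.30, adjusted p = 0.0272) and Wipi2 (0.27, adjusted p = 0.0118), which act early in autophagosome formation, were higher, and Atg5, part of the conjugation machinery, had -0.26 (adjusted p = 0.0164), a lower level. Txnip, Pdp2, Ppp1r3c and Hk1 each lost the call without at least 1 library, differing by gene (any DRF replicate or any NRF replicate), with an adjusted p of up to 0.161. Atg13, Atg14, Wipi2 and Atg5 each lost the call without at least 1 library, differing by gene (DRF replicates 1 or 4, or NRF replicates 1, 2 or 3), with an adjusted p of up to 0.111.

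Both metallothionein genes on the list of glucocorticoid-responsive genes were higher under DRF. Of 17 tested members of that list, 6 were called higher and 0 lower, with a median of 0.53 (5 or 6 in each fit with a library left out). Mt2, a small metal-binding protein (ENSMUSG00000031762, chr8:94172664-94173568, plus strand), was at 8.05, 10.4, 6.65 and 7.31 TPM under DRF and 1.5, 1.6, 1.03 and 1.98 TPM under NRF. The gap between the groups was wider than either range, and the difference was 1.84 ± 0.31 (SE, adjusted p = 0.000127). Mt1, its neighbour on the chromosome, was far more abundant at 297, 407, 314 and 325 TPM under DRF and 157, 228, 139.6 and 131 TPM under NRF, a difference of 1.05 ± 0.15 (SE, adjusted p = 1.22e-05). Glul, which makes glutamine, was higher by 0.88 (adjusted p = 0.000449), Klf9, a transcription factor, by 0.62 (adjusted p = 0.00511), and Pik3r1, the regulatory subunit of PI3 kinase, by 0.51 (adjusted p = 0.00871). Fkbp5 (0.67, adjusted p = 0.0988) and Tsc22d3 (0.20, adjusted p = 0.579), both standard reporters of the glucocorticoid receptor, were not called at ZT24. Of 4 genes raised by cooling, Cirbp was higher by 0.94 (adjusted p = 0.000809) and Srsf5 by 0.65 (adjusted p = 0.0396), while Rbm3 had a difference of 0.23 (adjusted p = 0.399). Srsf5 lost its call without DRF replicates 1 or 3, or NRF replicates 2, 3 or 4, with an adjusted p of up to 0.147.

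Clock genes differed in both directions. Of 11 tested repressors, 3 were called higher and 2 lower under DRF. Nr1d2 (REV-ERB beta), which represses Arntl (ENSMUSG00000021775, chr14:18204054-18239127, minus strand), was at 24.8, 23.4, 34.3 and 23.4 TPM under DRF and 12.1, 9.25, 9.88 and 11.1 TPM under NRF. The groups did not overlap, DRF replicate 3 was the highest, and the difference was 1.23 ± 0.19 (SE, adjusted p = 3.71e-05). Per1, which also responds to glucocorticoids, was at 5.93, 13.1, 17.4 and 13.4 TPM under DRF and 7.23, 4.29, 3.97 and 3.57 TPM under NRF (1.18 ± 0.36, SE, adjusted p = 0.0331). Its groups overlapped, since DRF replicate 1 lay below NRF replicate 1. Cry1 went the other way, at 10.2, 12.7, 8.62 and 10.9 TPM under DRF and 20.9, 23.7, 18 and 18.5 TPM under NRF, with a difference of -0.88 ± 0.16 (SE, adjusted p = 0.000299) and no overlap. Cry2 was higher by 0.43 (adjusted p = 0.00795), the opposite direction to its paralog. Nfil3, which opposes the PAR bZIP factors on D-boxes, was lower, at 23.9, 16.1, 17.3 and 20.3 TPM under DRF and 37.3, 36.9, 31.5 and 31.3 TPM under NRF (-0.80 ± 0.25, SE, adjusted p = 0.0319).

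Several other core genes were not called. Per2 had 1.78, 3.92, 3.72 and 1.95 TPM under DRF and 3.09, 3.98, 2.26 and 2.01 TPM under NRF, a difference of -0.02 (adjusted p = 0.975), and its groups overlapped. Arntl, the BMAL1 gene, had 10.6, 8.21, 7.83 and 9.62 TPM under DRF and 14, 10.6, 11 and 13.4 TPM under NRF (-0.40, adjusted p = 0.285). Clock (-0.12, adjusted p = 0.461), Npas2 (0.17, adjusted p = 0.602), Per3 (0.40, adjusted p = 0.156) and Ciart (-0.47, adjusted p = 0.439) were not called. Nr1d1 (REV-ERB alpha) spread from 12.8 to 31.3 TPM under DRF and from 8.38 to 19.8 TPM under NRF (0.71, adjusted p = 0.0971). It overlaps Thra on the opposite strand, whose reads a library without strand cannot separate. Rora, an activator of Arntl, was higher by 0.39 (adjusted p = 0.0117). Among output factors 3 of 9 were called higher, namely Klf15 by 0.75 (adjusted p = 0.0272), Klf9 as above and Usp2 by 0.51 (adjusted p = 0.0149), while Dbp (0.60, adjusted p = 0.396) and Tef (0.47, adjusted p = 0.0522), both PAR bZIP factors, were not. The called repressors were fewest, 1 higher and 1 lower, without NRF replicate 3. The called output factors were fewest, 1 higher, without DRF replicate 3 or NRF replicate 3. Per1, Cry2, Nfil3, Rora, Klf15 and Usp2 each lost the call without at least 1 library, differing by gene (any DRF replicate or any NRF replicate), with an adjusted p of up to 0.129.

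**Figure D2:**
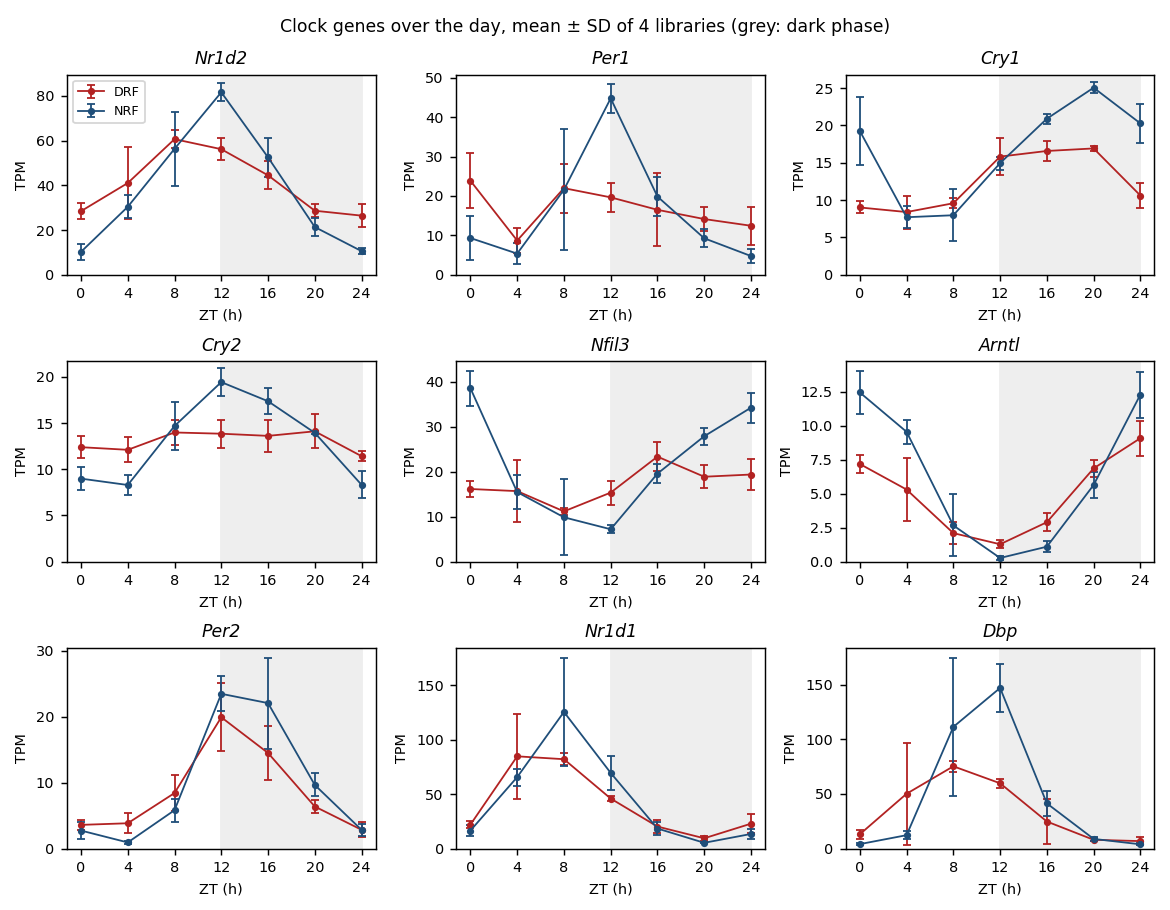
Mean TPM ± SD of 4 libraries per regimen (red DRF, blue NRF) against ZT in h for 9 clock genes, with the dark phase in grey. At ZT24 and ZT0 alike, Nr1d2 and Per1 stand higher and Cry1 and Nfil3 lower under DRF, while Arntl was called lower at ZT0 and not at ZT24. Nr1d2 reaches 26.5 ± 5.24 TPM under DRF against 10.6 ± 1.27 TPM under NRF at ZT24 from 56.2 ± 5.02 and 81.7 ± 3.99 TPM at ZT12.

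Mean levels at earlier times of day place these differences. Nr1d2 went from 81.7 ± 3.99 TPM at ZT12 to 10.6 ± 1.27 TPM at ZT24 under NRF (SD, n = 4), and from 56.2 ± 5.02 to 26.5 ± 5.24 TPM under DRF. Nfil3 under NRF went from 7.21 ± 0.891 TPM at ZT12 to 34.3 ± 3.33 TPM at ZT24, whereas under DRF it was 15.4 ± 2.66 and 19.4 ± 3.52 TPM. Cry1 under NRF stood at 15 ± 0.859 TPM at ZT12, 25.1 ± 0.702 TPM at ZT20 and 20.3 ± 2.62 TPM at ZT24, and under DRF at 15.8 ± 2.48, 16.9 ± 0.339 and 10.6 ± 1.69 TPM. The spread between replicates was large at NRF ZT8 and DRF ZT4, for example 9.87 ± 8.42 and 15.7 ± 6.94 TPM for Nfil3. Without the libraries of ZT4 and ZT8 the fit called 1587 genes at ZT24, a setting chosen after seeing the data.

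Promoter sequences of 4 genes are shown because the genes were called and each holds a motif of a factor named above. They cover the 250 bases before a RefSeq transcription start on the gene's strand, 5′ to 3′ (GRCm38.p6). Capitals mark E-boxes (CACGTG, a palindrome) for Per1 (chr11:69098699-69098948, plus strand), Cry1 (chr10:85185055-85185304, minus strand) and Slc27a1 (chr8:71570344-71570593, plus strand), and the FOXO motif (GTAAACA) for Txnip (chr3:96557707-96557956, plus strand).
Per1: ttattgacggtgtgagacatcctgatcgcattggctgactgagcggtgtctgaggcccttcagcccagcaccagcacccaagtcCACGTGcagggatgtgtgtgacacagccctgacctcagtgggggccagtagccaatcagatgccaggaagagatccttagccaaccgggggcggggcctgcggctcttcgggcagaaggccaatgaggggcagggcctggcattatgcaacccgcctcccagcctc
Cry1: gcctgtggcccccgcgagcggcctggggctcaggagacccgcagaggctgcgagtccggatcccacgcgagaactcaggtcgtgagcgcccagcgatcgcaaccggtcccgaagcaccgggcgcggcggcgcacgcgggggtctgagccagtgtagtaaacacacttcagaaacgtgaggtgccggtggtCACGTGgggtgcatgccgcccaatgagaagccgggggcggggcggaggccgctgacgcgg
Slc27a1: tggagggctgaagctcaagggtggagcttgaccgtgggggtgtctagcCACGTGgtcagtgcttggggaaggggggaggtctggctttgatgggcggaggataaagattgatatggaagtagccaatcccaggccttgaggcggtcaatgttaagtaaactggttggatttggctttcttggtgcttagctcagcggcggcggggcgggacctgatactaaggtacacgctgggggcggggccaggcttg
Txnip: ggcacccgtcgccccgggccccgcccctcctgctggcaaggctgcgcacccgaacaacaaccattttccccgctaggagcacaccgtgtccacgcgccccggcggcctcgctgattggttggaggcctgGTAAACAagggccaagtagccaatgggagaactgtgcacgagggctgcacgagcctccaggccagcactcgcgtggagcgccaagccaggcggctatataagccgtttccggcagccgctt
Each motif was searched on both strands in windows from 250 bases before to 50 after the start. The E-box was present for 9 of 36 searched genes that had a promoter in the table, of 47 searched for, and for 8.09% of all 27025 genes. The 36 were the genes with the highest and lowest differences and the clock genes, many of which are known E-box targets. Per1 and Cry1 both hold an E-box and differed in opposite directions, and Slc27a1, higher under DRF, holds one 202 bases before 1 of its 3 RefSeq starts. That start is the most downstream and lies 1712 bases inside the gene's GENCODE span, and the other Slc27a1 windows hold no E-box. The Per1 window belongs to the upstream of 2 RefSeq starts, which likewise lies within the GENCODE span of Per1, 3732 bases from its 5′ end. FOXO motifs were found for Cry1, Klf9 and Txnip (3 of 36, against 4.05% of all genes). The D-box TTATGTAA was found for 1 gene, Per3 (1.11% of all genes), and a PPAR-type direct repeat and a heat shock element for 0 of 36 (0.0481% and 0.662%). A match describes letters in a window and is not a bound site.

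Chaperones of several kinds were called lower under DRF. For the endoplasmic reticulum, 9 of 21 tested genes of folding and the unfolded protein response were called lower and 1 higher, and 19 of 21 had a negative difference, with a median of -0.37 (4 without DRF replicate 1). Manf, a secreted protein induced when the reticulum is under stress, had 15.6, 14.1, 25.1 and 19.1 TPM under DRF and 43.2, 32.1, 33.7 and 38.1 TPM under NRF, with no overlap and a difference of -0.98 ± 0.22 (SE, adjusted p = 0.0028). Hspa5 (BiP), the main chaperone of the compartment, had 183, 181, 252 and 208 TPM under DRF and 354, 268, 257 and 326 TPM under NRF (-0.55 ± 0.15, SE, adjusted p = 0.019), where DRF replicate 3 came within a few TPM of NRF replicate 3. Sdf2l1, a partner of BiP, had -0.80 (adjusted p = 0.039) and Hyou1, a large chaperone of the same compartment, -0.61 (adjusted p = 0.0119). Lower too were the calcium-binding chaperone Calr with -0.39 (adjusted p = 0.0208) and the transcription factor Xbp1 with -0.38 (adjusted p = 0.0409). The disulfide isomerases Pdia3, Pdia4 and Pdia6 had -0.48 (adjusted p = 0.00394), -0.55 (adjusted p = 0.0119) and -0.48 (adjusted p = 0.00875). Herpud1, which acts in degradation from the reticulum, was the exception and was higher by 0.49 (adjusted p = 0.0128). Hsp90b1 (GRP94) had a difference of -0.37 (adjusted p = 0.0774). Hspa5, Sdf2l1, Calr, Pdia6, Xbp1 and Herpud1 each lost the call without at least 1 library, differing by gene (DRF replicates 1, 2 or 3, or any NRF replicate), with an adjusted p of up to 0.164.

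Of the heat shock list, which holds cytosolic chaperones and cofactors and the mitochondrial pair Hspd1 and Hspe1, 8 of 24 tested members were called lower and 0 higher (median -0.21). The count was 0 without DRF replicate 1 and 2 without NRF replicate 3. Hsph1 (HSP110) had 10.9, 17.2, 11.3 and 15.1 TPM under DRF and 24.7, 24.1, 20.2 and 20.3 TPM under NRF (-0.69 ± 0.19, SE, adjusted p = 0.0146), and its groups did not overlap. Lower as well were the HSP90 cofactors Chordc1 with -0.44 (adjusted p = 0.0349), Cacybp with -0.29 (adjusted p = 0.0145) and Ahsa1 with -0.28 (adjusted p = 0.0372). Stip1, which links HSP70 to HSP90, had -0.36 (adjusted p = 0.0325), with the mitochondrial chaperonin Hspe1, which overlaps Hspd1, at -0.36 (adjusted p = 0.0126). Hspa4, an HSP70 exchange factor, had -0.21 (adjusted p = 0.0301) and Hsf1, the transcription factor of the heat shock response, -0.19 (adjusted p = 0.0306). Hspa8, the constitutive HSP70, had 508, 483, 575 and 564 TPM under DRF and 649, 723, 636 and 669.5 TPM under NRF and was not called although the groups did not overlap (-0.33, adjusted p = 0.203). The stress-induced near-identical genes Hspa1a (-0.04, adjusted p = 0.949) and Hspa1b (-0.19, adjusted p = 0.791) were low, from 1.11 to 4.25 TPM over the 8 libraries, and reads shared between them may have been split by the counting. Hsph1, Chordc1, Cacybp, Ahsa1, Stip1, Hspe1, Hspa4 and Hsf1 each lost the call without at least 1 library, differing by gene (DRF replicates 1, 2 or 3, or any NRF replicate), with an adjusted p of up to 0.159.

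Of 20 tested genes of branched-chain amino acid catabolism, 5 were called higher, 0 lower and 15 were not called (3 without NRF replicate 3, and 1 when only the ZT24 libraries were fitted). The difference was positive for all 20, with a median of 0.13. Ppm1k, the phosphatase that activates the branched-chain ketoacid dehydrogenase, had 42.4, 37.1, 43 and 44.1 TPM under DRF and 28.4, 26, 21.1 and 21 TPM under NRF, with no overlap and a difference of 0.77 ± 0.11 (SE, adjusted p = 1.1e-05). Subunits of that dehydrogenase, Dbt and Bckdha, were higher by 0.36 (adjusted p = 0.00412) and 0.31 (adjusted p = 0.00843), and the downstream carboxylase subunits Mccc2 and Pccb by 0.27 (adjusted p = 0.00722) and 0.23 (adjusted p = 0.0397). The amino acid response list was mixed, with 4 of 18 higher and 2 lower. There Eif4ebp1, a brake on translation, was higher by 0.38 (adjusted p = 0.00114), whereas Atf5, a stress transcription factor, had -0.45 (adjusted p = 0.0107) and Mthfd2, a mitochondrial folate enzyme, -0.37 (adjusted p = 0.0367). The other higher members were Shmt2 (0.24, adjusted p = 0.0209) and Aldh1l2 (0.42, adjusted p = 0.018), also of mitochondrial folate metabolism, and Vldlr, given above. Atf4 itself had a difference of -0.31 (adjusted p = 0.0716). Csad, which makes the taurine precursor hypotaurine, was higher by 0.35 (adjusted p = 0.0389), the 1 called gene of 6 on its list (8.83% of all genes were called). Cdo1, which feeds that pathway, ran from 5.74 to 37.1 TPM under DRF (1.07, adjusted p = 0.197). Bckdha, Pccb, Atf5, Mthfd2, Shmt2, Aldh1l2 and Csad each lost the call without at least 1 library, differing by gene (any DRF replicate or any NRF replicate), with an adjusted p of up to 0.173.

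Tfrc, the transferrin receptor that imports iron, had the lowest difference of any called gene (ENSMUSG00000022797, chr16:32608920-32632794, plus strand). It measured 8.89, 25.4, 13.9 and 17.4 TPM under DRF and 52.8, 64.5, 62.2 and 53.3 TPM under NRF, 3.55-fold lower in mean TPM. The gap between the groups was wider than either group's range, and the difference was -1.85 ± 0.26 (SE, adjusted p = 1.1e-05). Slc40a1 (ferroportin), the iron exporter, was higher by 0.57 (adjusted p = 0.00104), and Alas1, the first enzyme of haem synthesis, was lower, with -0.45 (adjusted p = 0.0158). Together 1 of 13 iron and haem genes was called higher and 2 lower (median -0.14). Tfrc is also abundant in red cell precursors, and the erythroid markers summed to 4196 to 32334 TPM under DRF and 2681 to 31476 TPM under NRF with 0 of 6 called. Gclm, a subunit of the glutathione-making ligase, was higher by 0.51 (adjusted p = 0.00039) and was the 1 called gene of 15 NRF2 targets. Nampt, the rate-limiting enzyme of NAD salvage, was higher by 0.49 (adjusted p = 0.00125) and was the 1 called of 14 NAD and sirtuin genes. Over all genes 8.83% were called in either direction, so 1 of 14 and 1 of 15 are near that share. Alas1 lost its call without DRF replicate 1 or NRF replicate 2, with an adjusted p of up to 0.116.

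Nppb and Acta1, which rise in a loaded heart, were lower under DRF. Nppb, the B-type natriuretic peptide (ENSMUSG00000029019, chr4:147985788-147987205, plus strand), had 209, 258, 329 and 319 TPM under DRF and 774, 683, 1234 and 1170.2 TPM under NRF. All DRF libraries lay far below all NRF libraries, and the difference was -1.76 ± 0.34 (SE, adjusted p = 0.000678), 3.46-fold in mean TPM. Acta1, the skeletal actin that the adult heart re-expresses under load, had 167, 261, 91.8 and 216 TPM under DRF and 459, 538, 455 and 394 TPM under NRF (-1.42 ± 0.32, SE, adjusted p = 0.00401). Nppa, the atrial peptide, was at 414, 157, 1387 and 1337 TPM under DRF and 162, 210.5, 129.7 and 677 TPM under NRF (1.33, adjusted p = 0.358), and was not called. The atrial marker sums, given above, were highest in DRF replicates 3 and 4, which had the highest Nppa and, within DRF, the highest Nppb, and their part in these values was not tested. Skeletal muscle fibre markers summed to 5.15 to 9.05 TPM under DRF and 6.63 to 8.26 TPM under NRF.

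Of 20 sarcomere genes, 2 were called higher and 0 lower, where 8.83% of all genes were called in either direction. Myom2, an M-band protein, had 302, 212, 228 and 249.6 TPM under DRF and 187, 138, 103 and 122 TPM under NRF, with no overlap (0.87 ± 0.14, SE, adjusted p = 7.11e-05). Tcap, which anchors titin at the Z-disc, had 1564, 1397, 2700.4 and 1741 TPM under DRF and 963, 1317, 1014 and 933 TPM under NRF (0.77 ± 0.23, SE, adjusted p = 0.0269), and DRF replicate 3 was the highest. Myh6, the adult myosin, differed by 0.19 (adjusted p = 0.273). Kcnd2, a channel of the transient outward current, was higher by 0.40 (adjusted p = 0.0247) and was the 1 called of 24 ion channel genes, while its partner Kcnip2 had 0.16 (adjusted p = 0.302). On the calcium and adrenergic list, 3 of 21 were higher and 1 lower. Adra1a, an alpha-1 adrenergic receptor, had 6.38, 7.49, 6.29 and 7.82 TPM under DRF and 3.57, 4.15, 3.3 and 3.2 TPM under NRF, with no overlap (0.81 ± 0.16, SE, adjusted p = 0.00109). Pde3a, which breaks down cyclic AMP, was higher by 0.46 (adjusted p = 0.00322) and Pln, the brake on the calcium pump, by 0.24 (adjusted p = 0.0352). Tcap, Kcnd2 and Pln each lost the call without at least 1 library, differing by gene (DRF replicates 1, 3 or 4, or any NRF replicate), with an adjusted p of up to 0.154.

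Ccl12, Ccl7, Isg15 and Aplnr were among the 12 lowest differences. Ccl12, a chemokine that draws monocytes, had 1.67, 3.09, 6.62 and 7.74 TPM under DRF and 11.2, 11.7, 15.8 and 14.3 TPM under NRF (-1.44 ± 0.29, SE, adjusted p = 0.000943). The related Ccl7 had 3.75, 4.58, 4.31 and 9.08 TPM under DRF and 9.15, 12.9, 16.4 and 11.2 TPM under NRF (-1.10 ± 0.26, SE, adjusted p = 0.00466), where DRF replicate 4 lay just below the lowest NRF value. Isg15, an interferon-stimulated ubiquitin-like protein, had 22.6, 35.3, 16.7 and 19.7 TPM under DRF and 37, 46.8, 51.6 and 53.7 TPM under NRF (-1.01 ± 0.24, SE, adjusted p = 0.00485). Summed macrophage markers were 837 to 1085 TPM under DRF and 992 to 1594 TPM under NRF, with 1 of 9 called, and their part in the chemokine and interferon values was not tested. Aplnr, the apelin receptor of endothelium, had 41.2, 51.6, 22.3 and 45.1 TPM under DRF and 107, 82.4, 93.8 and 61.8 TPM under NRF (-1.12 ± 0.26, SE, adjusted p = 0.00386), with endothelial marker sums of 824 to 1030.2 and 826 to 1226 TPM.

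Other genes with the lowest differences had various roles. Ccnd1 (cyclin D1), which drives entry into the cell cycle, had 22.6, 36.2, 16.4 and 34.4 TPM under DRF and 43.1, 56.2, 72.7 and 42.4 TPM under NRF (-0.97 ± 0.20, SE, adjusted p = 0.00118). Mycn, a growth-promoting transcription factor, had 4.19, 5.84, 3.41 and 6.02 TPM under DRF and 10.9, 10.6, 13.3 and 7.98 TPM under NRF (-1.0 ± 0.24, SE, adjusted p = 0.00593). Egln3, an oxygen-sensing prolyl hydroxylase, was tight within groups, with 50.2, 67.6, 49.4 and 64.5 TPM under DRF and 121, 128, 121 and 115 TPM under NRF (-1.07 ± 0.18, SE, adjusted p = 0.000119). Rtn4r, the Nogo receptor, had 4.29, 5.46, 4.77 and 5.83 TPM under DRF and 10.04, 24, 18.4 and 13.3 TPM under NRF (-1.46 ± 0.33, SE, adjusted p = 0.00361), and its NRF libraries spread widely. Serpinh1 (HSP47), the collagen chaperone, was lower, with -0.88 (adjusted p = 0.00109), as was Sparc, a collagen-binding matrix protein, with -0.67 (adjusted p = 0.029). Timp3, a protease inhibitor of the matrix, was higher by 0.38 (adjusted p = 0.0464). These were the called members of 25 matrix genes, whose median was -0.28, and no collagen gene on the list was called. Timp4, the cardiac inhibitor of the same family, was higher, with 19.1, 22, 29.6 and 26.4 TPM under DRF and 11.4, 15.3, 7.76 and 10.1 TPM under NRF (1.08 ± 0.22, SE, adjusted p = 0.00128). Its span lies inside Syn2 on the opposite strand. Sparc and Timp3 each lost the call without at least 1 library, differing by gene (any DRF replicate or any NRF replicate), with an adjusted p of up to 0.153.

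Less studied transcripts completed the upper end. Gm19277, a long intergenic RNA, had 13.9, 9.68, 16.7 and 10.1 TPM under DRF and 6.56, 4.58, 3.39 and 2.67 TPM under NRF (1.38 ± 0.22, SE, adjusted p = 7.01e-05). Tmem179, a membrane protein of unclear role, had 7.52, 7.17, 7.6 and 8.4 TPM under DRF and 3.24, 3.75, 3.23 and 2.02 TPM under NRF (1.11 ± 0.20, SE, adjusted p = 0.000231), and no library crossed between the groups. Gm15626, a processed pseudogene inside the gene Tecrl on the same strand, had 3.83, 3.11, 3.86 and 3.11 TPM under DRF and 2.26, 0.54, 0.21 and 1.86 TPM under NRF (1.13 ± 0.29, SE, adjusted p = 0.00976), so its reads may in part come from Tecrl transcripts.

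Large housekeeping groups gave few or no calls at ZT24, where 8.83% of all genes were called in either direction. The smaller groups hold too few genes for 0 calls to stand apart from that share. None of 39 cytosolic ribosomal protein genes was called by limma (median -0.03), none of 40 nuclear respiratory chain genes (median -0.04) and none of 13 mitochondrially encoded genes (median 0.11). No aminoacyl-tRNA synthetase of 20 was called (median -0.02), while of 31 proteasome subunits Psmd4 was higher (0.16, adjusted p = 0.0459) and Psmd14 lower (-0.20, adjusted p = 0.0337). Immediate early genes had 0 of 23 called, and replication and mitosis genes 0 of 21, although the median of the last was -0.24 and 17 of 21 were lower under DRF. A missed threshold does not show that these groups were equal. Gm15626, Psmd4 and Psmd14 each lost the call without at least 1 library, differing by gene (DRF replicates 1, 3 or 4, or NRF replicates 2, 3 or 4), with an adjusted p of up to 0.175.

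**Figure D3:**
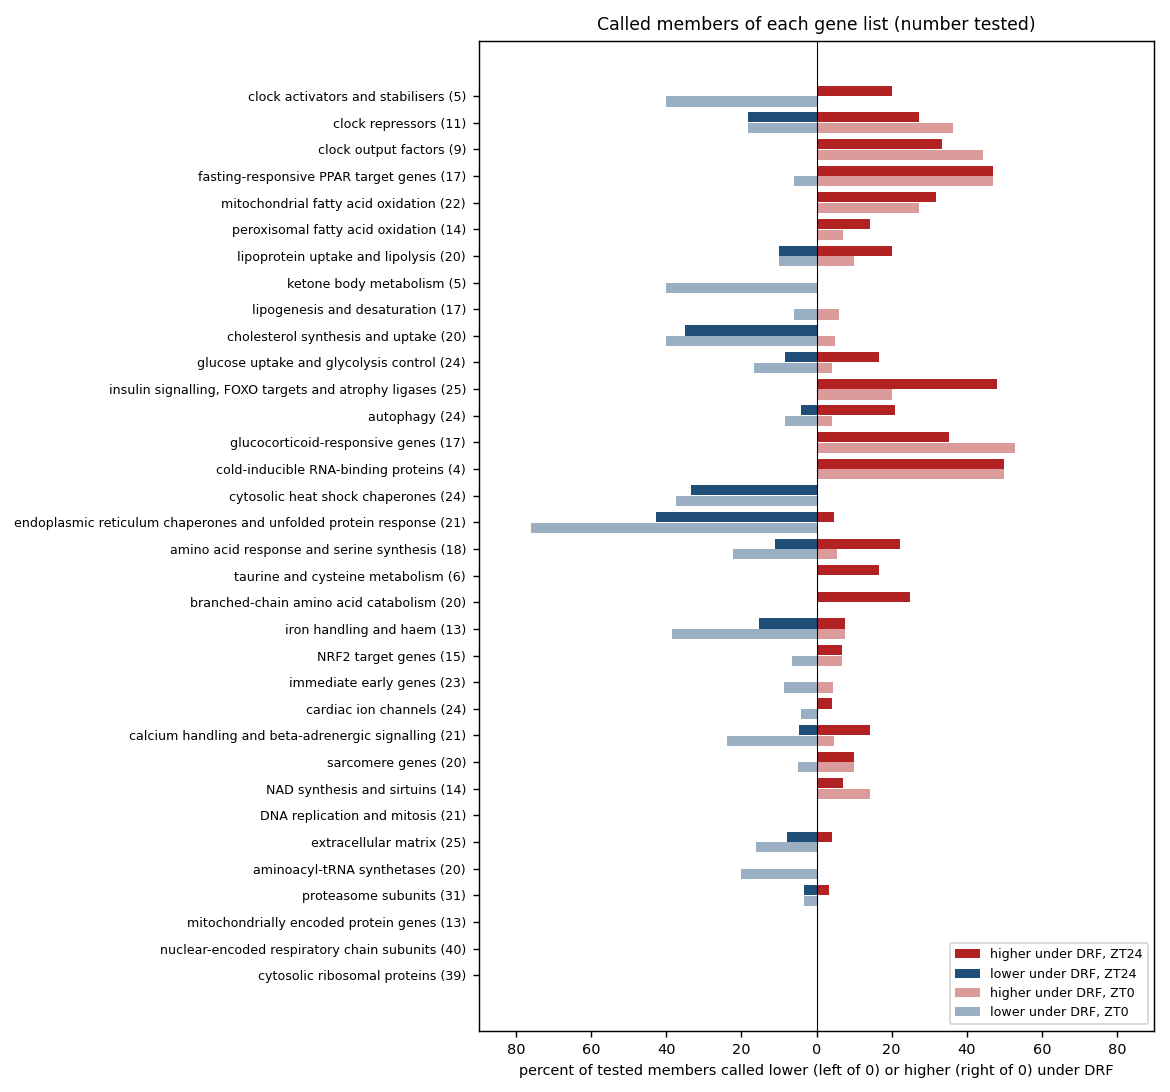
Percent of the tested members of each gene list (number tested in brackets) called higher (right, red) or lower (left, blue) under DRF, with ZT24 in full colour and ZT0 pale below it. PPAR targets, insulin and FOXO genes and glucocorticoid-responsive genes lie mainly to the right and chaperones and cholesterol genes mainly to the left on both days, while branched-chain genes have 5 calls at ZT24 and 0 at ZT0.

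The same contrast a day earlier, at ZT0, came from other hearts and other libraries. There 1581 genes were called (11.4%), 422 higher (3.04%) and 1159 lower (8.34%) under DRF, and the median of all tested genes was -0.053. With median-of-ratios scaling, which centres the genes, ZT0 gave 913 higher and 1043 lower (46.7% higher, against 26.7% without it), and ZT24 gave 1031 and 1130. Over all 13893 genes the ZT24 and ZT0 differences correlated with Pearson r = 0.617 and Spearman rho = 0.607, a description across genes, which are not independent replicates. The sign was the same for 71.2% of all genes and for 95.8% of those called at ZT24 (1176 of 1227). In the other direction, of the genes called at ZT0, 94.6% had the same sign at ZT24. Called on both days were 592 genes, 48.2% of the ZT24 calls and 37.4% of the ZT0 calls, with 235 higher on both days, 356 lower on both and 1 of opposite sign.

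**Figure D4:**
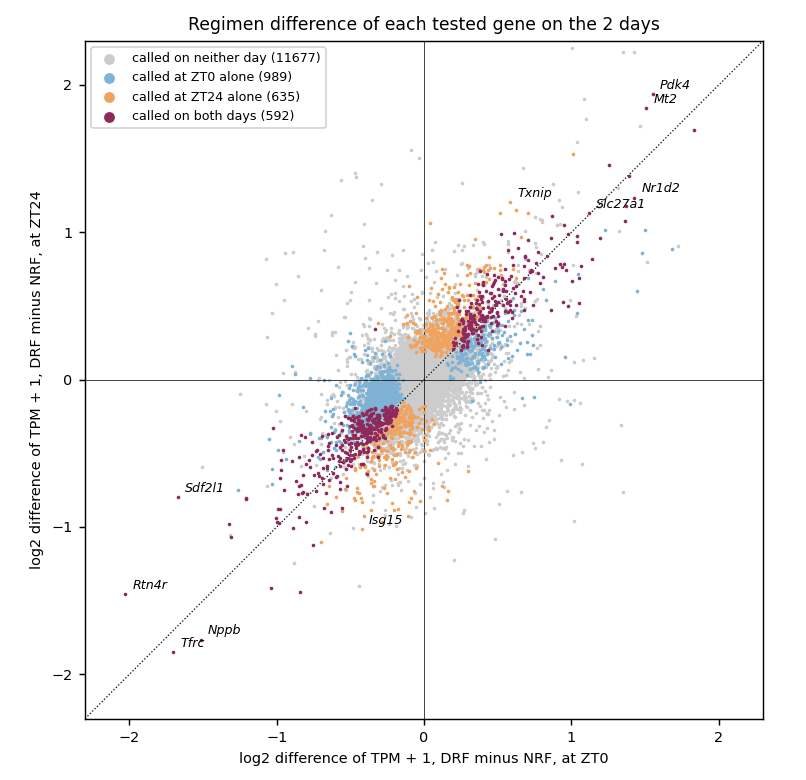
Log2 difference of TPM + 1 (DRF minus NRF) at ZT24 against that at ZT0 for all 13893 tested genes, coloured by the day or days on which a gene was called, with the line of equality dotted. Called genes run along the diagonal from Tfrc and Nppb to Pdk4 and Mt2, and almost none of those called at ZT24 lie in the opposite quadrants.

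Sizes carried over in large part. Genes called at ZT24 had a median difference of 0.38 in their own direction at ZT24 and 0.28 in that direction at ZT0, and genes called at ZT0 had 0.35 at ZT0 and 0.22 at ZT24. Sets chosen by size on 1 day shrink on another by that choice alone, so these drops say nothing of a change between the days. The higher genes of ZT24 went from a median of 0.39 to 0.24 and the lower genes from -0.37 to -0.32. Signed by their ZT0 direction and averaged over the 1581 genes called at ZT0, the ZT24 libraries stood at 0.19, 0.12, 0.17 and 0.065 for DRF replicates 1 to 4 and at -0.14, -0.15, -0.15 and -0.10 for NRF replicates 1 to 4, on log2(TPM + 1) around their common mean. All 4 DRF libraries were thus on the positive side and all 4 NRF libraries on the negative side of genes chosen by the ZT0 contrast, whose spread the fit shares with all libraries, with DRF replicate 4 closest to the middle.

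**Figure D5:**
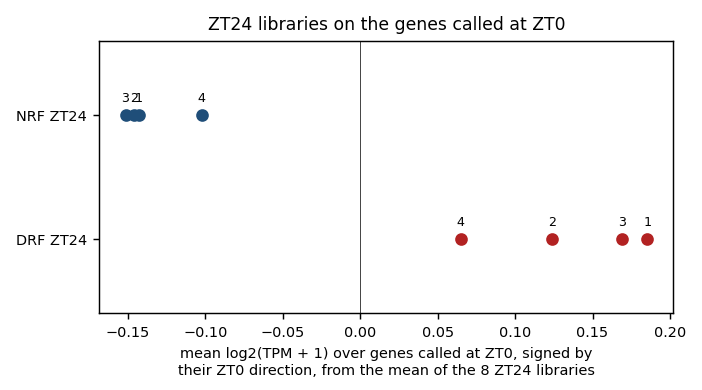
Mean log2(TPM + 1) over the 1581 genes called at ZT0, each signed by its ZT0 direction, for the 8 libraries of ZT24 relative to their common mean (x axis), by regimen (y axis), with replicate numbers above the points. DRF libraries lie between 0.065 and 0.19 and NRF libraries between -0.15 and -0.10.

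Genes called on both days in the same direction were ranked by the smaller of their 2 differences. A high rank requires a large difference at ZT24, so overlap with the top genes of ZT24 follows from the ranking. By the smaller of the 2 differences, the highest included Pdk4 (1.94 at ZT24 and 1.55 at ZT0), Mt2 (1.84 and 1.51), Gm19277 (1.38 and 1.39), Acot1 (1.46 and 1.26) and Nr1d2 (1.23 and 1.43). The lowest were Tfrc (-1.85 and -1.70), Nppb (-1.76 and -1.51), Rtn4r (-1.46 and -2.03), Egln3 (-1.07 and -1.31), Acta1 (-1.42 and -1.04) and Manf (-0.98 and -1.32). At ZT0, Tfrc measured 12.8, 14.5, 17.3 and 17.4 TPM under DRF and 47.9, 43.3, 83 and 43.7 TPM under NRF, and Pdk4 911, 393, 424 and 812 TPM under DRF and 269, 126, 178 and 273 TPM under NRF. The Tfrc groups were apart on both days.

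No gene passed the test of the difference between the days. The contrast of the ZT24 effect with the ZT0 effect called 0 of 13893 genes by limma. At an unadjusted p under 0.05 there were 810 genes (5.83%), voom also called 0, and 2 genes passed when only genes averaging 5 TPM or more were tested. Those 2, named after their values were seen, were Arhgef19 (-0.33 at ZT24 and -1.03 at ZT0) and Mgea5, which encodes the enzyme that removes O-GlcNAc (0.17 and -0.29). The precision was limited, with a median half-width of 0.29 (log2) for the 95% interval of the difference between days. So the days were not shown to be alike for single genes either. Txnip, for instance, differed by 1.21 at ZT24 and 0.59 at ZT0, and the difference between the days was 0.62 (95% interval -0.25 to 1.48, unadjusted p = 0.156, adjusted p = 0.904). The gene of opposite sign, Rbm45, an RNA-binding protein, had 26.4, 26.8, 25.2 and 27.8 TPM under DRF and 26.1, 19.7, 16.9 and 21.2 TPM under NRF at ZT24 (0.34, adjusted p = 0.0342), against -0.34 at ZT0 (adjusted p = 0.0309).

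Counts by list are set side by side for the days, with no test of a list, and the lists were chosen with earlier results of these data known. Over all genes 4.39% were called higher and 4.44% lower at ZT24, against 3.04% and 8.34% at ZT0, so lower calls were the more frequent at ZT0 in this fit. Much of that excess was absent at ZT0 with median-of-ratios scaling (913 higher and 1043 lower) and voom (945 and 1057). The list counts below are from the first model. PPAR targets had 8 higher and 0 lower at ZT24 and 8 higher and 1 lower at ZT0 (medians 0.49 and 0.43). Cholesterol genes had 7 lower at ZT24 and 8 lower and 1 higher at ZT0 (medians -0.16 and -0.24). Heat shock genes had 8 and 9 lower, and glucocorticoid-responsive genes 6 and 9 higher. Reticulum chaperones had 1 higher and 9 lower at ZT24 and 0 higher and 16 lower at ZT0 (medians -0.37 and -0.70). Insulin and FOXO genes had 12 higher at ZT24 and 5 at ZT0 (medians 0.28 and 0.14). Autophagy genes had 5 higher and 1 lower at ZT24 and 1 higher and 2 lower at ZT0, and branched-chain genes 5 higher and 0 lower against 0 higher and 0 lower. Glucose handling had 4 higher and 2 lower at ZT24 and 1 higher and 4 lower at ZT0, calcium and adrenergic genes 3 higher and 1 lower against 1 higher and 5 lower, and amino acid response genes 4 higher and 2 lower against 1 higher and 4 lower. For Ppm1k the difference between the days was 0.47 (95% interval 0.16 to 0.77, unadjusted p = 0.00331, adjusted p = 0.582). For Sdf2l1 it was 0.87 (95% interval 0.15 to 1.6, unadjusted p = 0.0193, adjusted p = 0.738). Of 25 tested genes on the clock lists, 7 were called on both days and 11 on neither. Called at ZT0 alone were Arntl (-0.71, adjusted p = 0.0359), Clock (-0.27, adjusted p = 0.0498), Per3 (0.71, adjusted p = 0.00696), Dbp (1.45, adjusted p = 0.0194) and Tef (0.61, adjusted p = 0.0079). Called at ZT24 alone were Rora, at 0.18 (adjusted p = 0.273) for ZT0, and Klf15, at 0.60 (adjusted p = 0.0711) for ZT0. The differences between the days of these 7 had unadjusted p from 0.155 (Rora) to 0.646 (Klf15).

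At the other times of day, also from separate libraries, the ZT24 differences correlated across genes most with those at ZT20 (r = 0.534), less at ZT16 (r = 0.259) and ZT4 (r = 0.149), near 0 at ZT8 (r = 0.023) and negatively at ZT12 (r = -0.145). Of the 1227 genes called at ZT24, 95.5% had the same sign at ZT20, 64.1% at ZT16, 51.7% at ZT4, 45% at ZT8 and 18.7% at ZT12. Within a regimen, ZT24 and ZT0 libraries differed for 59 genes under DRF and 8 under NRF at the same threshold, against 1227 between regimens. The 8 under NRF, named after their values were seen, were Gm22009, Scarna2, Gm11808, Ndufs6b, Gm16378, Gm10709, Rpl36-ps3 and mt-Te, and each had the same sign under DRF. Gm22009 had a ZT24 minus ZT0 difference of -2.20 under NRF and -2.24 under DRF, and Ndufs6b had -1.35 and -1.46.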

How the data were processed

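The authors deposited a single table for 22864 genes and 56 heart libraries, named TPM. Per the submitters' processing notes it was made with HISAT2 2.0.5 and featureCounts 1.5.0-p3 on mm10, and the annotation and strand setting were not given in the sources used here. The deposited values are other than linear TPM: each equals a library constant times log2(1 + depth-scaled reads), divided by exon length, which compresses abundant genes. The 2 constants of each library were fitted and the values turned back into whole reads with GENCODE M21 exon lengths (22852 genes matched, whole reads for 21955). For 835 genes, 800 of them on chromosomes 17 to 19, a length was searched, 70 genes too abundant to test kept the annotated length, and 4 (Hsp90ab1, Acaa2, Atp5a1 and Fth1) were left out. Of 1192367 values tested, 100% came within 0.1 of a whole read. In simulation 99.997% of values and 199 of 200 altered lengths were recovered.

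Linear TPM was recomputed. Genes averaging 1 TPM or more were tested with limma 3.58.1 (14 group means, trended eBayes, log2(TPM + 1), Benjamini-Hochberg), because the unit is not a deposited count. In simulated counts for this comparison (13893 genes), 90% of genes changed by 1 and 68% of those changed by 0.5 on the log2 scale were called, with 13 false calls among 171. The simulation drew each gene independently, with no deviation shared by the genes of a library, so these rates may not hold for the data. Genes named were the 12 highest and 12 lowest called differences without overlap, up to 5 called members per list and members with a known role, 6 per direction on both days, and, after their values were seen, the remaining called list members. Library measures were compared by exact permutation. Alternatives were the pseudocount, the filter, scaling, voom, the deposited values, eBayes without trend, the 8 libraries of a day alone, a replicate block and each library left out. Some genes that these rules name are not reported here. The rule for genes called different between days named none. Members and lists were chosen with earlier results of these data known. Library PCR copies were not marked, so counts cover counting error only.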

Additional observations from a re-analysis of the deposited data

Results flagged for a closer look

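Among 338 groups of 4 values, 19 had a library far from the other 3 by Dixon's test at the 95% level, or 5.62%, where chance gives about 1 in 20. Under DRF these were Nr1d2 (34.3 TPM), Dbp (12.0 TPM) and Ucp3 (39.0 TPM) in replicate 3, Ccl7 (9.08 TPM) and Deptor (7.55 TPM) in replicate 4, Timp3 (64.0 TPM) in replicate 1 and Aldh1l2 (2.79 TPM) in replicate 2. Under NRF they were Klhl38 (5.68 TPM), Foxo3 (22.3 TPM) and Cpt1b (4.74 TPM) in replicate 1, Ehhadh (11.1 TPM), Acadvl (462 TPM), Mlycd (97.4 TPM) and Alas1 (94.6 TPM) in replicate 2, Cacybp (67.4 TPM) and Xbp1 (67.9 TPM) in replicate 3, and Nppa (677 TPM) in replicate 4. NRF replicate 2 also had a low share of mitochondrially encoded reads (18.4%) and of the 10 most abundant genes (21.6%).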

How the results depend on the processing

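Against 1227 called genes at ZT24, median-of-ratios scaling gave 2161, voom on the recovered reads 2152 and a fit of the 8 ZT24 libraries alone 510, and leaving out 1 library gave 567 to 1233. At ZT0 the 8 libraries alone gave 848 and leaving out 1 gave 896 to 1717, against 1581, the lowest being 896 and 901 without NRF replicates 3 and 1 and 950 without DRF replicate 1. Voom gave 945 higher and 1057 lower at ZT0. The difference between days gave 2 genes among those of at least 5 TPM and 0 to 4 with 1 library left out. The correlation between days was 0.512 with a pseudocount of 0.1, 0.528 without a filter and 0.701 above 5 TPM, and 0.553 to 0.640 with 1 library left out, where the same-sign share stayed within 93.3 to 99.0%. The causes were not tested. The replicate number as a block gave 1256 calls at ZT24. Same-numbered samples did not deviate together at ZT24 (correlations 0.0086, -0.033, -0.18 and -0.077), and at ZT0 the values were -0.024, -0.037, 0.11 and -0.058. No pairing by number was seen, but so few values cannot show that the samples were unpaired. The block ended 1 call among the named genes. Of 121 named called genes none reversed in any setting, 57 held without each ZT24 library and 49 in every setting. Some uncalled genes changed sign with 1 library left out. Per2 ran from -0.15 to 0.12 (positive without DRF replicates 1 or 4 or NRF replicates 1 or 2), Hspa1a from -0.16 to 0.12 (positive without DRF replicates 1 or 2 or NRF replicate 2) and Hk2 from -0.17 to 0.0038 (positive without NRF replicate 1). Without the libraries of ZT4 and ZT8, a setting chosen after seeing the data, 1587 genes were called at ZT24 and 1865 at ZT0. With 4 libraries a group, the unadjusted 95% interval of a difference between days had a median half-width of about 0.29. A call after adjustment over all tested genes asks for more than that. Arhgef19, with a difference between days of 0.70, was not called there (limma adjusted p = 0.067).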

Other observations

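Several interferon-stimulated genes, noticed after their values were seen and so given without a test of the group, were called lower under DRF at ZT24. Ifit3 had 15.2, 16.3, 8.88 and 11.3 TPM under DRF and 23.8, 29.5, 25.4 and 24.3 TPM under NRF (-0.97, adjusted p = 0.000326), and it shares reads with its near copy Ifit3b (-0.88). Ifit1 differed by -0.84, Ifi44 by -0.77, Irf7, a transcription factor of the response, by -0.67 and Ifit2 by -0.60, all called. Rsad2 (-0.45) and Oasl2 (-0.41) were not. At ZT0 the differences were -0.28 for Ifit3, -0.22 for Ifit1 and -0.06 for Ifit2, none called, and the difference between days had an adjusted p of 0.699 for Ifit3. Ccl2, another chemokine of the family of Ccl7 and Ccl12, had a difference of -0.97 at ZT24 and -1.0 at ZT0, called on both days. Ccl6 (-0.17 and -0.17), Ccl8 (-0.50 and -0.12) and Ccl9 (-0.32 and -0.38), looked at together with it, were called on neither day.

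The largest differences that were not called belonged mainly to genes of the atria. Myl7, the atrial myosin light chain, had 392, 54.5, 1301 and 1209 TPM under DRF and 84.6, 75.8, 18.6 and 516 TPM under NRF (2.25, adjusted p = 0.285). Sln, sarcolipin, had 64.9, 5.57, 239 and 178 TPM and 12.1, 11.2, 1.47 and 98.5 TPM (2.22), and Mybphl, Myl4, Bmp10 and Sbk3 were of the same kind. DRF replicates 3 and 4 were high, DRF replicate 2 was as low as most NRF libraries, and NRF replicate 4 was high in its group. Pck1, a gluconeogenic enzyme also made in fat, ran from 0.686 to 21.1 TPM under DRF and from 0.0921 to 1.25 TPM under NRF (1.77, adjusted p = 0.099).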
